A study of Mus musculus with 6 samples.

Results

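The genes described here code for the vascular endothelial growth factor (VEGF) ligands *Vegfb*, *Vegfc* and *Pgf*, their receptors *Flt1* and *Kdr*, the angiopoietins *Angpt1* and *Angpt2*, their receptor *Tek* and the angiopoietin-like protein *Angptl2*. They were chosen by gene symbol, and all 9 were found among the 17092 genes counted and passed the filter on low counts, which kept 13075 genes for testing. The RNA came from mouse embryonic fibroblasts (MEFs) of WT mice and of mice without *Aff3ir-ORF2*, a product of a gene nested in *Aff3* (*Aff3ir-ORF2*-/-, called knockout from here on). The deletion was made with Cas9 and guide RNAs in fertilized eggs and is global. Each genotype had 3 libraries, and the labels name no treatment, age or sex for either. Nothing in the labels says whether the libraries of a genotype came from separate embryos or cultures, so p-values measure only the spread between these libraries.

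VEGF ligands bind receptor tyrosine kinases on endothelial and lymphatic endothelial cells and drive the growth of vessels. *Kdr* is the main signalling receptor of blood vessel endothelium, whereas *Flt1* binds its ligands tightly, signals weakly and is also made as a soluble form that traps them. *Angpt1* activates the receptor encoded by *Tek* and stabilizes vessels, and *Angpt2* is an antagonist or weak agonist of the same receptor. Fibroblasts and mural cells are known as sources of the ligands, while the receptors are mainly known from endothelium.

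Total counts ranged from 17435133 to 18252330 a library. The replicate spread beyond counting noise, as edgeR's common biological coefficient of variation, was 0.0184 among the WT and 0.0998 among the knockout libraries. Of 13 macrophage markers, all 13 lay higher in each knockout than in any WT library. Among all tested genes, 66% did not overlap between genotypes, in either direction. The summed level of the markers was 19.4 to 23.0 CPM (counts scaled to library size) in WT and 1265 to 2146 CPM in knockout libraries. *C1qa*, *Fcgr1* and *Aif1* were at 0 in every WT library, but *Aif1* had only 1, 3 and 5 counts in the knockouts. Other macrophage markers were counted in WT, such as *Lyz2* at 162, 199 and 182 counts. The part of these cells in the results below was not tested. The targeted transcript was not analysed here, so the genotype of a library was not checked by it.

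Of the 9 genes, 2 were higher (*Angpt2* and *Kdr*) and 1 was lower (*Flt1*) in knockout cells, where a call required 1.5-fold or more together with an adjusted p below 0.05 in the quasi-likelihood test of edgeR, with Benjamini-Hochberg adjustment over all tested genes. Among all tested genes, 14.2% were higher, 7.27% were lower and 21.4% were called in either direction. The adjusted p alone was passed by 4 of the 9, since *Angptl2* fell by slightly less than 1.5-fold, beside 56.8% of all tested genes. For 5 of the 9 genes all knockout libraries lay on one side of all WT libraries, beside 66% of all tested genes. The median log2 fold change of the 9 was 0.0053, and that of all tested genes was 0.0056. With 9 genes, none of these counts is read as particular to the system, and the genes are described singly.

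The sequences before the start sites of *Flt1* and *Kdr*, the receptors that moved in opposite directions, and of *Angptl2*, the gene with the most counts, are shown for the motifs they hold. They were taken from a table of RefSeq start-site sequences (GRCm38.p6) that holds 7 of the 9 genes, not *Angpt1* or *Angpt2*, and each runs over the 250 bases before the start site. Capitals mark matches on either strand to TGACGTCA (the cyclic AMP response element, CRE), to TATAAA (the TATA box), to GGGCGG (the GC box, here always read from the opposite strand), to ACGTG (the core of the hypoxia response element) and to GCGTGGGCG (the site of Egr factors), and no matches overlapped. *Flt1* lies at chr5:147726012-147726261 (minus strand), *Kdr* at chr5:75978456-75978705 (minus strand) and *Angptl2* at chr2:33215711-33215960 (plus strand).
*Flt1*: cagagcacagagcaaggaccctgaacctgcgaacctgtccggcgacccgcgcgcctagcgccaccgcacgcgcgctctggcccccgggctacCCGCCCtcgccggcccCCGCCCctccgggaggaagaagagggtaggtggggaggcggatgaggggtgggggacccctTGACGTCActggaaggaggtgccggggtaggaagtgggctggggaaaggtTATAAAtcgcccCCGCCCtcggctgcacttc
*Kdr*: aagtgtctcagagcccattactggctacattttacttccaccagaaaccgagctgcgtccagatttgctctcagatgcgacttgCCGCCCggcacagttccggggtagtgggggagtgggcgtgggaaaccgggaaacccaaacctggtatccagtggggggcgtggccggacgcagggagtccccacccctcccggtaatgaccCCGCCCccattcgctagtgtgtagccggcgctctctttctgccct
*Angptl2*: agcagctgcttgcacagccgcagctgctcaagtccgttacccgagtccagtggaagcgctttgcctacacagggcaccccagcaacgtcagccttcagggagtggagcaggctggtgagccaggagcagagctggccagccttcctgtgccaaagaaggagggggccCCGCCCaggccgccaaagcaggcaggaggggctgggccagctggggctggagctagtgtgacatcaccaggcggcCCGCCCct

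The *Flt1* sequence held 1 CRE, 1 TATA box and 3 GC boxes, and those of *Kdr* and *Angptl2* held 2 GC boxes each and no other of the motifs. Of 32851 windows of this length before start sites in the same table, 1.55% held a CRE, 12.4% a TATA box, 32.7% a GC box, 16.6% the hypoxia core and 0.536% the Egr site. No window of the members held the hypoxia core or the Egr site. The TATA box of *Flt1* began 31 bases before the start site and the CRE 81 bases before it. These matches are letters in the reference sequence, and binding was not measured.

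Levels were compared between genes per length, as CPM over the length in kilobases of the longest coding GENCODE M21 transcript. In WT MEFs, *Angptl2* stood highest at 103 ± 2.68 CPM per kilobase (SD, n = 3), followed by *Flt1* at 24.1 ± 0.605, *Vegfb* at 17.6 ± 1.02 and *Vegfc* at 5.18 ± 0.274 CPM per kilobase. *Pgf* (2.20 ± 0.393) and *Angpt2* (1.80 ± 0.0971) came next and overlapped each other. *Kdr* (0.816 ± 0.0332), *Angpt1* (0.547 ± 0.0991) and *Tek* (0.173 ± 0.0343 CPM per kilobase) were lowest, and apart from *Pgf* and *Angpt2* no neighbours in this order overlapped. In knockout MEFs, *Angptl2* still stood highest at 70.2 ± 2.07 CPM per kilobase. *Vegfb* (19.5 ± 1.27) stood above *Flt1* (13.6 ± 2.70), and *Angpt2* (3.73 ± 0.108) stood above *Pgf* (2.21 ± 0.918 CPM per kilobase). *Kdr* (1.64 ± 0.528) overlapped both *Pgf* and *Angpt1* (0.818 ± 0.331), and *Tek* was again the lowest at 0.0700 ± 0.0510 CPM per kilobase. MEFs thus carried much more *Flt1* than *Kdr* RNA and hardly any *Tek* in either genotype. In bulk RNA, fewer cells that express a gene and less RNA of it per cell cannot be told apart.

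**Figure D1:**
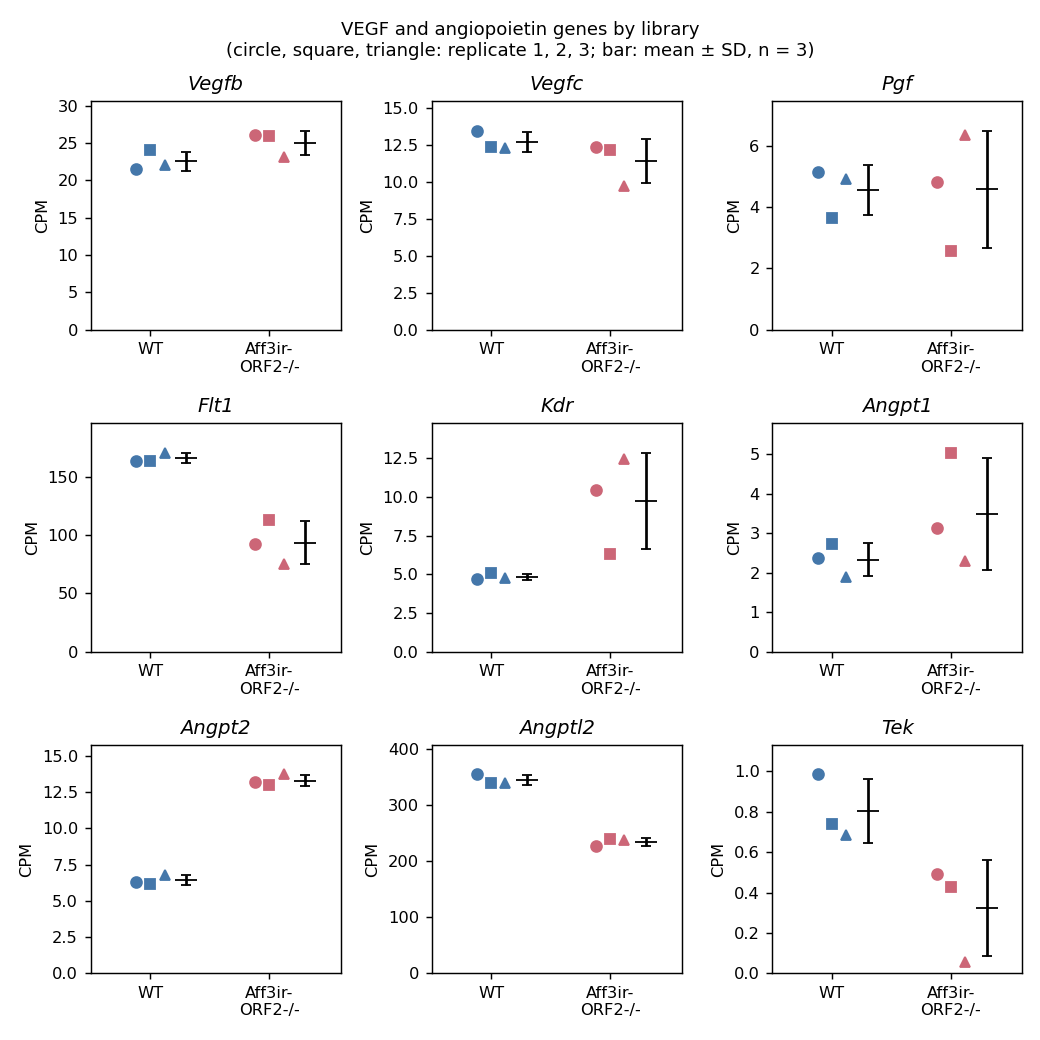
CPM on the y axis, from 0, of the 9 genes in each of 6 libraries, with WT in blue and knockout in red, replicates 1, 2 and 3 as circle, square and triangle, and mean ± SD (n = 3) in black. The genotypes do not overlap for *Flt1*, *Kdr*, *Angpt2*, *Angptl2* and *Tek*, and the red points of *Pgf*, *Kdr*, *Angpt1* and *Flt1* lie far apart.

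Of the ligands, *Vegfb* binds *Flt1* and is known for a role in cardiac and fat tissue. It was covered by 371, 422 and 386 counts in WT replicates 1 to 3 and 474, 483 and 425 for knockout replicates 1 to 3. After scaling, the genotypes overlapped, at 22.5 ± 1.30 and 25.02 ± 1.63 CPM (SD, n = 3 each), and the log2 fold change was 0.15 with a 95% interval of -0.015 to 0.32 (edgeR adjusted p = 0.108).

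*Vegfc*, which overlaps *Gm33153* in RefSeq and is the ligand of lymphatic growth that acts through *Flt4*, was covered by 232, 217 and 214 counts in WT and 225, 226 and 178 in the knockouts. These values overlapped, with knockout replicate 3 the lowest of all, and the log2 fold change was -0.15 (95% interval -0.40 to 0.090, edgeR adjusted p = 0.251).

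*Pgf*, placental growth factor, which binds *Flt1* and not *Kdr*, was covered by 89, 64 and 86 counts in WT and 88, 48 and 117 in the knockouts. Replicates 2 and 3 of the knockout were the lowest and the highest of the 6, with the 3 WT libraries between them. The log2 fold change was 0.0053 with an interval of -0.71 to 0.72 (edgeR adjusted p = 0.989), so that a change of up to 1.65-fold upward lay within the error. The sign turned under 6 of 15 alternatives.

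The receptors moved in opposite directions. *Flt1* (gene ID 14254) was covered by 2832, 2880 and 2992 counts in WT replicates 1 to 3 and 1678, 2103 and 1389 for knockout replicates 1 to 3. Every knockout library lay below every WT library. It fell from 166 ± 4.17 to 93.5 ± 18.6 CPM (SD, n = 3), which on the log2 scale was a change of -0.83 (SE 0.13, edgeR adjusted p = 0.00226), or 1.78-fold lower. Over 15 alternatives the log2 fold change lay between -0.99 and -0.70. Counts of a gene do not separate the membrane-bound from the soluble form of *Flt1*.

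*Kdr* (gene ID 16542) was covered by 81, 89 and 83 counts in WT and 190, 118 and 229 in the knockouts. Again the genotypes did not overlap, but replicate 2 of the knockout lay much nearer to WT than replicates 1 and 3. *Kdr* rose from 4.83 ± 0.197 to 9.74 ± 3.13 CPM (SD, n = 3), which on the log2 scale was a change of 1.01 (SE 0.23, edgeR adjusted p = 0.00668), or 2.01-fold higher. Without knockout replicate 2, the log2 fold change was 1.24, and without replicate 3 it was 0.79. *Kdr* and *Flt1* thus ranked the knockout libraries in reverse order, replicate 3 having the most *Kdr* and the least *Flt1*. The share of macrophage markers was also highest in replicate 3 (2146 CPM) but lowest in replicate 1 (1265 CPM), and its part in these differences was not tested.

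The ratio of *Flt1* to *Kdr* counts within a library does not depend on scaling between libraries. It was 34.8, 32.2 and 35.8 for WT replicates 1 to 3 and 8.81, 17.8 and 6.05 for knockout replicates 1 to 3. All 3 knockout ratios were below all 3 WT ratios. The mean log2 ratio was 5.10 ± 0.0799 in WT and 3.30 ± 0.788 in knockout MEFs (SD, n = 3), a ratio 3.49-fold lower (two-sided exact permutation test, p = 0.1, below which this design cannot go). Leaving out a library moved the log2 difference between -2.23 and -1.45.

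**Figure D2:**
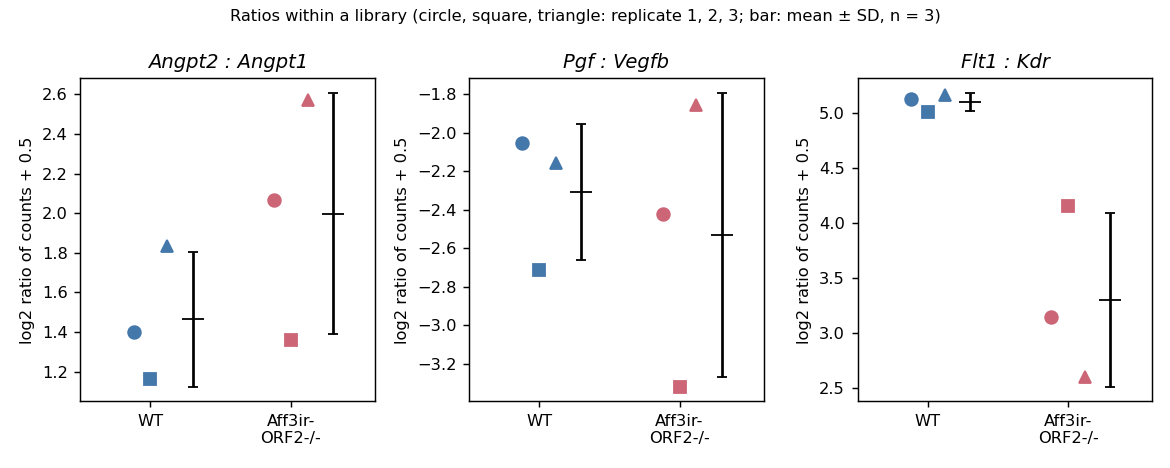
The log2 ratio of counts, plus a pseudocount of 0.5, on the y axis for 3 pairs of genes in each of 6 libraries, with WT in blue, knockout in red, replicates 1, 2 and 3 as circle, square and triangle, and mean ± SD (n = 3) in black; the y axes do not start at 0. The genotypes are apart for *Flt1* to *Kdr*, with means of 5.10 and 3.30, and overlap for the other pairs.

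*Tek* (gene ID 21687), the receptor of the angiopoietins, was near the detection limit, with 17, 13 and 12 counts in WT and 9, 8 and 1 counts in knockout libraries. A count of 3, which a count of 0 allows, corresponded to 0.161 to 0.174 CPM, and replicate 3 of the knockout was below it. The gene passed the filter only through the WT libraries. The genotypes did not overlap, but the log2 fold change of -1.28 had an interval of -2.44 to -0.13 and missed the threshold (edgeR adjusted p = 0.0564). It passed without knockout replicate 1 (edgeR adjusted p = 0.0432) or replicate 2 (edgeR adjusted p = 0.0301). Without replicate 3, the log2 fold change was -0.79 (edgeR adjusted p = 0.112).

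*Angpt2* (gene ID 11601), the angiopoietin that endothelial cells release on activation, differed with little spread. It was covered by 109, 108 and 119 counts in WT replicates 1 to 3 and 240, 242 and 252 for knockout replicates 1 to 3. The libraries of a genotype lay close together and the genotypes far apart. *Angpt2* rose from 6.42 ± 0.346 to 13.3 ± 0.386 CPM (SD, n = 3), which on the log2 scale was a change of 1.05 (SE 0.09, edgeR adjusted p = 1.67e-05), or 2.07-fold higher. Over 15 alternatives the log2 fold change stayed between 1.01 and 1.09. The gene overlaps *Mcph1* in RefSeq, and the counting is not stated to use strand. *Mcph1* differed the other way, with 501, 509 and 501 counts for WT against 426, 336 and 395 for knockout (log2 fold change -0.46, edgeR adjusted p = 0.00172). *Flt1*, *Kdr* and *Angpt1* also overlap genes of long noncoding RNAs in RefSeq (*Gm35383*, *Gm32727* and *Gm41313*), which were not among the genes counted.

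*Angpt1* (gene ID 11600), the agonist of the same receptor, was covered by 41, 48 and 33 counts in WT and 57, 94 and 42 in the knockouts. The genotypes overlapped, since replicate 3 of the knockout lay within the WT range, and replicate 2 was the highest of all. The log2 fold change was 0.58 with an interval of -0.084 to 1.25 and did not pass the test (edgeR adjusted p = 0.121). Without knockout replicate 3 it was 0.81 (edgeR adjusted p = 0.0228), and without replicate 2 it was 0.21 (edgeR adjusted p = 0.450).

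The ratio of *Angpt2* to *Angpt1* counts was 2.64, 2.24 and 3.57 in WT and 4.18, 2.57 and 5.94 in knockout replicates 1, 2 and 3. Replicate 2 of the knockout lay within the WT range, so that the rise of *Angpt2* was not matched by a ratio beyond the replicate error (log2 difference 0.53, exact permutation test, two-sided p = 0.3). The ratio of *Pgf* to *Vegfb*, both ligands of *Flt1*, was 0.241, 0.153 and 0.224 in WT and 0.187, 0.1003 and 0.276 in knockout libraries, with the same overlap (log2 difference -0.22, exact permutation test, two-sided p = 0.7). With 3 ratios tested, the Benjamini-Hochberg adjusted p of *Flt1* to *Kdr* was 0.3, that of *Angpt2* to *Angpt1* 0.45 and that of *Pgf* to *Vegfb* 0.7.

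*Angptl2* (gene ID 26360), a secreted glycoprotein of fibroblasts, fat and vessels that is linked with chronic inflammation, was by far the most counted gene of the system. It had 6115, 5954 and 5934 counts in WT and 4126, 4449 and 4372 in knockout libraries. The genotypes were clearly separated, at 344 ± 8.95 and 234 ± 6.91 CPM (SD, n = 3). The log2 fold change was -0.55 (SE 0.04, edgeR adjusted p = 8.47e-06), or 1.47-fold lower, just short of the fold criterion. Over 15 alternatives it stayed between -0.57 and -0.52. *Angptl2* overlaps *Ralgps1*, which was much less counted, at 205, 226 and 226 in WT and 137, 179 and 135 in knockout libraries, and fell too (log2 fold change -0.62, edgeR adjusted p = 0.00154).

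The spread among the knockout libraries was unequal over the system. The coefficient of variation of CPM was 2.91% for *Angpt2*, 2.95% for *Angptl2* and 6.50% for *Vegfb*, but 32.1% for *Kdr*, 40.5% for *Angpt1*, 41.6% for *Pgf* and, at the lowest counts, 72.8% for *Tek*. Among the WT libraries it was at most 19.9%, for *Tek*, and 4.07% for *Kdr*. *Pgf* and *Kdr* were lowest in knockout replicate 2 and highest in replicate 3, by 2.47-fold and 1.97-fold. *Flt1* and *Angpt1* were highest in replicate 2 and lowest in replicate 3, by 1.49-fold and 2.20-fold.

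Among the 6 libraries, the genes whose log2 CPM followed *Angpt2* most closely were *Sec61a1*, *Ndrg2* and *Gprc5c*, with Pearson correlations of 0.999 each. Those that followed *Flt1* most closely were *Plekha1*, *Cdh11* and *Cnr1*, also at 0.999 to 1.00. At a correlation of at least 0.99 there were 279 such genes for *Angpt2* and 50 for *Flt1*. The points of these correlations are 6 libraries in 2 genotypes, so that a difference between genotypes alone gives a high value, and they are given as a description. They set no size, since *Sec61a1*, a subunit of the channel of the endoplasmic reticulum, had a log2 fold change of 0.094 and *Ndrg2* one of 2.05.

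The other ligands and receptors of the system included *Flt4*, the receptor of *Vegfc* on lymphatic endothelium. *Flt4* was covered by 1178, 1228 and 1186 counts in WT and 839, 604 and 795 in the knockouts, without overlap. It fell from 68.7 ± 1.03 to 40.6 ± 7.22 CPM (SD, n = 3), which on the log2 scale was a change of -0.76 (SE 0.12, edgeR adjusted p = 0.00108). *Nrp1*, a coreceptor of *Kdr*, rose from 186 ± 8.66 to 288 ± 27.3 CPM (SD, n = 3), with 3247, 3111 and 3389 counts in WT and 5508, 4775 and 5588 in knockout libraries. Its log2 fold change of 0.63 (edgeR adjusted p = 7.48e-05) was 0.58 without replicate 1 or replicate 3 of the knockout, just under 1.5-fold. Thus *Nrp1* moved in the direction of *Kdr*, and *Flt4* in that of *Flt1*.

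*Nrp2*, the coreceptor of *Flt4*, had a log2 fold change of 0.14 (edgeR adjusted p = 0.0425), without passing 1.5-fold. *Vegfd*, another ligand of *Flt4*, overlapped, with 198, 203 and 178 counts in the WT and 216, 263 and 196 in the knockout libraries, with a log2 fold change of 0.14 (edgeR adjusted p = 0.320). *Angpt4*, another angiopoietin, was covered by 107, 95 and 105 counts in WT and 67, 99 and 45 in the knockouts. Per CPM the genotypes just failed to overlap, but its log2 fold change of -0.62 missed the threshold (edgeR adjusted p = 0.0503) and was -0.94 without knockout replicate 2 (edgeR adjusted p = 3.89e-04). It also passed with no filter (edgeR adjusted p = 0.0416), DESeq2 (adjusted p = 0.0413) and limma voom (adjusted p = 0.0228). *Tie1* was not analysed here. Of the 5 genes, 1 was higher and 1 lower, beside 14.2% and 7.27% of all tested genes, and the median log2 fold change was 0.14.

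**Figure D3:**
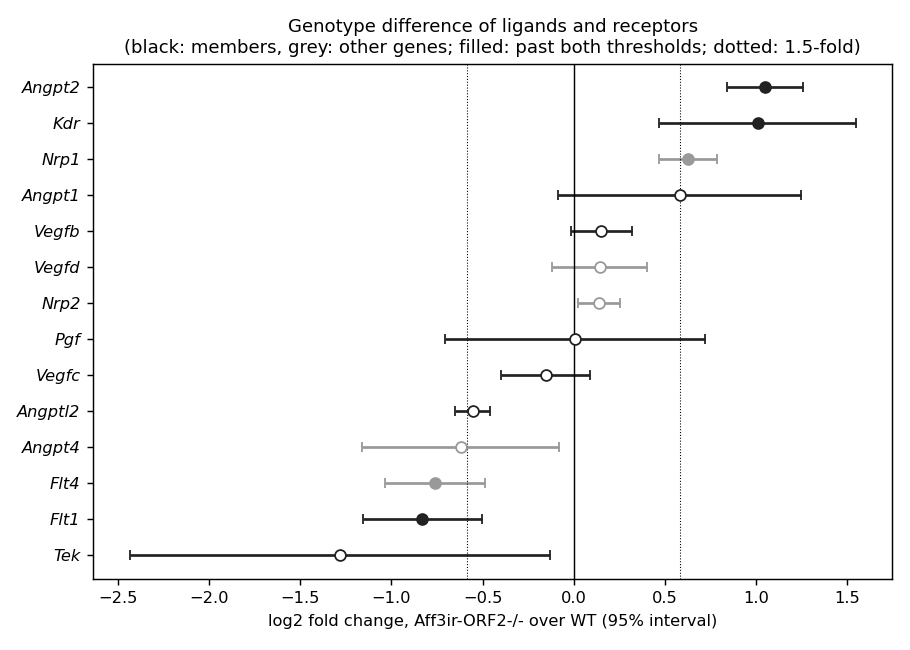
Log2 fold change of knockout over WT on the x axis with 95% intervals from edgeR, for the 9 genes (black) and the other 5 ligands and receptors (grey), filled where both thresholds were passed and with dotted lines at 1.5-fold. The filled points of *Angpt2*, *Kdr* and *Nrp1* lie to the right of the dotted lines and those of *Flt1* and *Flt4* to the left, and the intervals of *Pgf*, *Angpt1* and *Tek* are wide.

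Of the other angiopoietin-like genes, 4 were tested, of which *Angptl1* and *Angptl7* passed the filter only through the knockout libraries, where they were high. Where 10 counts were required in every library, 1 gene, *Angptl4*, was higher. *Angptl4*, a secreted inhibitor of lipoprotein lipase that responds to hypoxia and fatty acids, rose from 59, 76 and 62 counts to 193, 212 and 258, a log2 fold change of 1.67 (SE 0.15, edgeR adjusted p = 1.66e-05). *Angptl7* rose from 3, 6 and 3 counts to 53, 118 and 47, with a log2 fold change of 4.06 (edgeR adjusted p = 3.46e-04). Both were separated between genotypes, as were 66% of all tested genes and *Angptl2*, which was 1.47-fold lower.

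*Angptl1*, at 5, 5 and 7 against 11, 16 and 14 counts, was higher (log2 fold change 1.17, edgeR adjusted p = 0.0207). That call was lost with DESeq2 (adjusted p = 0.108), without WT replicate 1 (0.0705) or 2 (0.0722) and without knockout replicate 2 (0.0586). *Angptl6* had a log2 fold change of -0.65 (edgeR adjusted p = 0.0687), which was -1.09 without knockout replicate 2 (edgeR adjusted p = 1.08e-04). *Angptl8* had at most 2 counts in any library and was not tested.

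Of 11 tested genes of receptor phosphatases and signalling, 6 were higher and none was lower (median log2 fold change 0.60, against 0.0056 over all tested genes, of which 14.2% were higher). *Ptprb*, the receptor phosphatase of endothelium that acts on the receptor encoded by *Tek*, was covered by 79, 79 and 96 counts in WT and 336, 273 and 334 in the knockouts. Its log2 fold change was 1.81 (SE 0.13, edgeR adjusted p = 4.70e-06), or 3.52-fold higher. *Ptprj*, a phosphatase that acts on *Kdr*, rose with a log2 fold change of 1.12, and *Svep1*, a matrix protein that binds angiopoietins, with 1.23. *Pik3r1*, a regulatory subunit of PI3 kinase, rose with 1.07, and *Foxo1*, the transcription factor that AKT keeps out of the nucleus, with 0.82.

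*Nck1*, an adaptor protein, rose with 0.60, but was just under 1.5-fold without WT replicate 1 (0.56) or knockout replicate 2 (0.55). *Plcg1* (-0.021), *Akt1* (0.070), *Shb* (0.082) and *Nfatc1* (0.15) did not pass the test. *Rcan1* at 0.58 passed the adjusted p alone, and both thresholds under 5 of 15 alternatives. *Nos3* had at most 4 counts in any library and was not tested, and *Sh2d2a* was not analysed here.

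Of the 5 genes that process *Vegfc* or related precursors, 1 was lower and none was higher (median log2 fold change -0.31), beside 7.27% of all tested genes that were lower. *Pcsk7*, a proprotein convertase, was covered by 2302, 2350 and 2263 counts in WT and 1244, 1156 and 1269 in the knockouts, with a log2 fold change of -0.99 (SE 0.05, edgeR adjusted p = 1.15e-06). *Furin* passed the adjusted p alone, at -0.31. *Ccbe1*, *Adamts3* and *Pcsk5* overlapped between genotypes and did not pass the test.

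Of the 6 genes of hypoxia control, 3 were higher and none was lower (median log2 fold change 0.57), again beside 14.2% of all tested genes that were higher. *Epas1*, a hypoxia-inducible factor typical of endothelium, rose from 70, 97 and 85 counts to 274, 263 and 328, a log2 fold change of 1.70 (SE 0.14, edgeR adjusted p = 9.93e-06). *Egln3*, a prolyl hydroxylase that marks these factors for breakdown, rose with 1.01 (edgeR adjusted p = 0.00125), and *Vhl*, the ligase subunit that recognizes the mark, with 0.63 (edgeR adjusted p = 7.95e-05). The value of *Vhl* was just under 1.5-fold, at 0.58, without knockout replicate 2. *Hif1a* at 0.51 and *Egln1* at 0.26 passed the adjusted p alone. *Arnt*, the common partner of *Hif1a* and *Epas1*, was at 0.038 (edgeR adjusted p = 0.630). Over all these lists, 13 of 31 tested genes were higher and 2 lower, beside 14.2% and 7.27% of all tested genes, and the 13 include *Angptl1* and *Angptl7*.

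**Figure D4:**
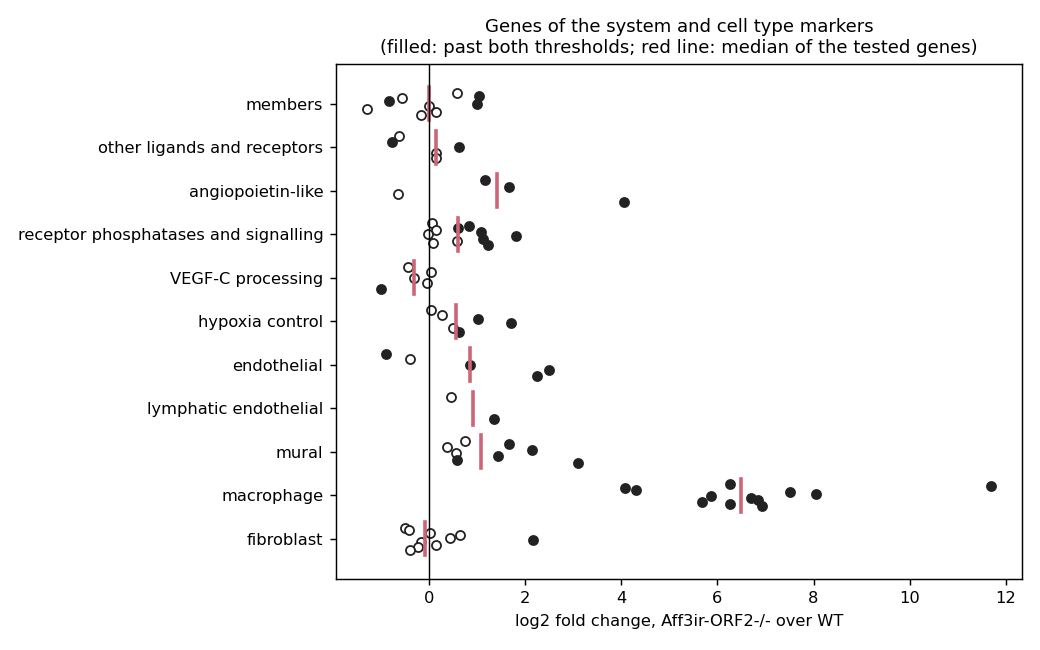
Log2 fold change of knockout over WT on the x axis for the tested genes of each list (points, filled where both thresholds were passed) with the median of the list as a red line. The 9 members lie on both sides of 0 with a median near 0, and the tested macrophage markers have the highest median, 6.49. Several of these markers, among them *C1qa*, *Fcgr1* and *Spi1*, were at or near 0 in WT and passed the filter only through the knockout libraries, which raises that median. Where 10 counts were required in every library, 6 macrophage markers were called higher, against 12.

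Since *Kdr*, *Flt1*, *Tek* and *Angpt2* are known from endothelium, markers of endothelial cells were read beside them. Of the 16 listed, 15 were in the table, and the summed level was 19.7 to 21.5 CPM in WT and 34.2 to 40.1 CPM in knockout libraries. *Pecam1* had 2 to 5 counts in every library, and *Icam2*, *Robo4* and *Sox17* had no counts in WT and at most 1 in any knockout library. Only 5 of the markers could be tested, of which 3 were higher and 1 lower, beside 14.2% and 7.27% of all tested genes. *Erg*, *Vwf* and *Eng* were higher, at log2 fold changes of 2.51, 2.24 and 0.86. *Cdh5*, the cadherin of endothelial junctions, was lower at -0.90 (edgeR adjusted p = 0.0294), and no endothelial marker was lower under 8 of 17 alternatives. *Erg* passed the filter only through the knockout libraries and *Cdh5* only with the WT libraries, in which each was high. Where 10 counts were required in every library, 2 endothelial markers were higher and none was lower. *Egfl7*, the other tested marker, was at -0.39 (edgeR adjusted p = 0.0791). *Eng* had 222 to 242 counts in WT and 389 to 502 in knockout libraries, *Vwf* 15 to 25 and 69 to 119, and *Erg* 3 to 7 and 21 to 45, so the list was mixed, with markers at or near 0 beside others that were counted and higher.

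Of the lymphatic endothelial markers, *Pdpn*, which fibroblasts also express, was at 0.46 and passed the adjusted p alone. *Prox1* rose from 11, 9 and 13 to 35, 21 and 34 counts (log2 fold change 1.36, edgeR adjusted p = 0.00452), while *Lyve1* had at most 7. With 9 counts in WT replicate 2, *Prox1* passed the filter only through the knockout libraries, where it was high. Where 10 counts were required in every library, the number of lymphatic endothelial markers higher was 0. Of 8 tested markers of mural cells, the pericytes and smooth muscle cells of vessels, 5 were higher and none was lower (median log2 fold change 1.09), beside 14.2% of all tested genes that were higher. Their summed level was 520 to 532 CPM in WT and 800 to 857 CPM in knockout libraries. *Rgs5*, *Des*, *Anpep*, *Notch3* and *Pdgfrb* rose, with log2 fold changes of 3.09, 2.14, 1.67, 1.44 and 0.59. *Rgs5*, at 4 to 7 counts in WT and 32 to 59 in knockout libraries, passed the filter only through the knockout libraries. *Pdgfrb* was close to 1.5-fold. The number of mural markers higher was 4 with 10 counts in every library, with the replicate block and with no filter. It was also 4 with limma voom and without WT replicate 2 or 3. Fibroblast markers were abundant in both genotypes, at 28075 to 28159 CPM in WT and 24383 to 30415 CPM in knockout libraries. *Lum* alone of the 10 passed both thresholds, at 2.17, beside 21.4% of all tested genes called in either direction. *Col1a1* (-0.49), *Col1a2* (-0.41) and *Vim* (-0.39) were lower and *Fn1* (0.45) higher by the adjusted p alone, and without knockout replicate 2 the number lower past both thresholds was 2. The part of these cell types in the changes of *Angpt2*, *Kdr* and *Flt1* was not tested.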

How the data were processed

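The libraries were made from RNA of MEFs, 3 from WT and 3 from *Aff3ir-ORF2*-/- (knockout) mice. Paired-end reads from a DNBSEQ instrument had been filtered with SOAPnuke by a sequencing company, and the authors deposited estimated counts per gene and library, without normalization. The aligner and counter are not given in the sources used here. The submitters' processing notes name the build mm8, so no coordinates other than those of the RefSeq windows (GRCm38.p6) are given. All 6 count columns were matched to libraries by name. Between 10.6% and 11.3% of the values were not whole, and all were rounded.

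Low genes were removed by the function filterByExpr (at least 10 counts and 15 in total, edgeR 4.0.16), and the rest were scaled by TMM (factors 0.989 to 1.02) and compared by the quasi-likelihood test with robust estimation, without covariates and with Benjamini-Hochberg adjustment over all 13075 genes. The standard error was the log2 fold change over the square root of F, and intervals cover 95%. CPM used TMM-scaled totals. A detection floor of 3 counts covers counting error only. Ratios within a library used counts plus 0.5. On data simulated from these means and library sizes, the functions were tested before use. R 4.3.3, limma 3.58.1, DESeq2 1.42.0, Python 3.11.15, scipy 1.17.1 and matplotlib 3.10.9 were used.

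The members, lists and tests were chosen with earlier results of these data known. Named genes were the members, the other ligands and receptors, listed genes past both thresholds, the 3 closest patterns to the largest rise and fall, and up to 4 markers of a list by level and those at 0. Genes that miss the thresholds and other markers were added once values had been seen, to fill out counts. The alternatives were other scalings, filters, tests and thresholds, a replicate block and leaving out each library. The overlap of gene positions was read from RefSeq, where all 9 members were found. Some genes are not reported here.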

Additional observations from a re-analysis of the deposited data

How the results depend on the processing

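The 2 members called higher numbered 2 under every alternative run except without knockout replicate 3 (3, with *Angpt1*), and leaving out a library gave 2 to 3. The 1 member called lower became 2 with limma voom or an unadjusted p, where *Tek* was the second. It also became 2 with the adjusted p alone, where *Angptl2* and not *Tek* was the second. The number was 0 at 2-fold and 1 to 2 when a library was left out. Over all genes, a 2-fold change gave 1096 higher and 317 lower calls, and the adjusted p alone 3831 and 3591. Beside 1851 and 951 in the main comparison, 77.6% and 51.6% of the calls were then higher, against 66.1%. The other genes of the system called fell from 15 to 9 at 2-fold, and the markers called from 23 to 13 where 10 counts were required in every library, which leaves fewer genes tested and takes the macrophage markers from 12 to 6. Of 597 values of 40 genes under alternatives, 582 kept their direction, and 551 also their side of the thresholds. The sign of *Pgf* turned with no filter (-0.0094) and limma voom (-0.076), and ranged from -0.31 to 0.29 when a library was left out. *Plcg1* turned with upper quartile (0.017) and total count scaling (0.0076) and ranged from -0.037 to 4.4e-04 without a library. *Pcsk5* turned with upper quartile scaling (0.0085) and ranged from -0.27 to 0.086, *Ccbe1* from -0.13 to 0.22 and *Arnt* from -0.029 to 0.077. The log2 difference in the ratio of *Pgf* to *Vegfb* ranged from -0.56 to 0.17. The cause of these turns was not tested.

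With the replicate block, 2 members were called lower, *Tek* being the second (adjusted p = 0.0357 from edgeR), *Angpt4* (adjusted p = 0.0379) and *Angptl6* (adjusted p = 0.0432) were also called lower, so that the other genes of the system called lower rose from 2 to 4, *Pgf* was at -0.027, and 1854 and 954 genes were called. The labels give a replicate number and no pairing. Deviations of same-numbered libraries correlated at only 0.0145 to 0.0424 over genes, under 0.1, although each library correlated best with its own number. Low counts limited the precision of *Tek* and *Angptl1* and the testing of most endothelial markers. Why these counts were low was not tested.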
